A study of Mus musculus with 12 samples.

Results

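The 35 genes described here make, interconvert and salvage nucleotides. They encode the enzymes of purine and pyrimidine synthesis, the enzymes that turn ribonucleotides into the precursors of DNA (deoxynucleoside triphosphates, dNTPs), and a few kinases and salvage enzymes. The genes were chosen by symbol from pathway knowledge, with earlier results of these data known. All 35 were found among the 24421 genes of the count tables. All 35 also passed the filter on low counts, which left 12878 genes for testing. RNA from splenocytes carrying B220, a form of CD45 found on B cells and on some other cells, had been sequenced from 12 mice aged 4 to 5 weeks, 1 library per mouse and 3 libraries per genotype. EuMyc Max KO mice carried the EuMyc transgene and a conditional knockout of Max, EuMyc mice carried the transgene with Max intact (EuMyc Max WT in the labels), Max KO mice had the knockout without the transgene, and WT mice had neither (Max WT in the labels). EuMyc places Myc under the immunoglobulin heavy chain enhancer, which is active in B lineage cells, and the cells were premalignant, per the series title. The Cre line or agent that deleted Max is not given in the sources used here.

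Cells build purines on a ribose phosphate until the ring is complete as IMP, and then branch to AMP or GMP. Pyrimidines are built as orotate, joined to the ribose phosphate to give UMP, and converted to CTP. Ribonucleotide reductase turns the diphosphates of both families into deoxy forms, and thymidylate synthase supplies the thymidine nucleotide. MYC binds DNA as a dimer with MAX, usually at the E-box CACGTG, and many genes of nucleotide synthesis are known as its targets. Dividing B cells need nucleotides for RNA and DNA, while resting B cells rely more on salvage of bases and nucleosides.

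Reads assigned to genes numbered 17890935 to 18668193 per EuMyc Max KO library, 20221681 to 21671601 per EuMyc library, 14973332 to 17125122 per Max KO library and 16629314 to 17647732 per WT library. Max was at 102 to 108 CPM (a gene's count as a share of all counts of the library, scaled between libraries) in EuMyc Max KO against 126 to 130 CPM in EuMyc, and at 99.8 to 102 CPM in Max KO against 108 to 139 CPM in WT. Counts per gene include transcripts that lack a deleted exon, so these levels do not measure the deletion. Myc was at 487 to 565 CPM in EuMyc Max KO, 975 to 1050 CPM in EuMyc, 120 to 136 CPM in Max KO and 96 to 115 CPM in WT. All 10 B lineage markers were detected in every library, with a summed level of 8270 to 9980 CPM in EuMyc Max KO, 5000 to 5900 CPM in EuMyc, 10200 to 11200 CPM in Max KO and 11800 to 13000 CPM in WT. The 13 proliferation genes summed to 1150 to 3010 CPM in EuMyc Max KO, 6070 to 6900 CPM in EuMyc, 372 to 414 CPM in Max KO and 667 to 700 CPM in WT. The 8 pro-B and pre-B markers summed to 78.3 to 116 CPM in EuMyc Max KO, 580 to 660 CPM in EuMyc, 65.6 to 94.7 CPM in Max KO and 82.4 to 91.9 CPM in WT. The 9 erythroid markers summed to 917 to 5210 CPM in EuMyc Max KO, 307 to 395 CPM in EuMyc, 142 to 420 CPM in Max KO and 63.7 to 283 CPM in WT, with Hbb-bt at 0 in all 12 libraries and Hba-a1 at 0 in 11. The 8 macrophage and monocyte markers summed to 1610 to 2960 CPM in EuMyc Max KO, 425 to 535 CPM in EuMyc, 1640 to 2280 CPM in Max KO and 1050 to 1270 CPM in WT. The 9 T cell markers found summed to 74.1 to 90.8 CPM in EuMyc Max KO, 9.57 to 14.4 CPM in EuMyc, 66.7 to 85.5 CPM in Max KO and 48.3 to 69.3 CPM in WT, and the 6 NK cell markers to 30.2 to 40.3, 2.76 to 6.74, 26.4 to 41.7 and 15.4 to 25.9 CPM in the same groups. The 6 dendritic cell markers summed to 60.4 to 93.5 CPM in EuMyc Max KO, 10 to 12 CPM in EuMyc, 122 to 216 CPM in Max KO and 70.1 to 129 CPM in WT. The 6 neutrophil markers found summed to 15.4 to 195 CPM in EuMyc Max KO, 6.95 to 11.7 CPM in EuMyc, 9.66 to 109 CPM in Max KO and 2.92 to 10.3 CPM in WT. The 6 plasma cell markers summed to 595 to 1080 CPM in EuMyc Max KO, 510 to 679 CPM in EuMyc, 425 to 520 CPM in Max KO and 931 to 1630 CPM in WT. No marker of these 6 lists was at 0 in all 3 libraries of a group. The 3 EuMyc Max KO libraries stood apart from each other, with Slc4a1, an erythroid anion exchanger, at 3200, 2080 and 488 CPM. In bulk RNA, a change in the number of cells of a type and a change in RNA per cell cannot be told apart.

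The windows around the annotated starts of 6 members are printed because they show where the E-box CACGTG lies, or does not lie, in genes that moved strongly between the genotypes. Each runs 5′ to 3′ on the gene's own strand from 250 bases before to 50 bases after the start, is taken from RefSeq on GRCm38.p6, and has CACGTG in capitals. Paics and Ppat encode enzymes of the same purine pathway and lie on opposite strands of chromosome 5. Their annotated 5′ ends overlap, the start of Ppat on the minus strand lying 271 bases beyond that of Paics on the plus strand in GENCODE vM21, so reads of the shared stretch are uncertain. The Paics window (chr5:76951052-76951351, plus strand) holds the motif with its base nearest the 5′ end at -203 from the start, and the Ppat window (chr5:76951529-76951828, minus strand) holds none. The window of Impdh2 (chr9:108560186-108560485, plus strand) has it at -110, that of Atic (chr1:71556906-71557205, plus strand) at -7 and that of Nme1 (chr11:93968223-93968522, minus strand) at -18. The window of Uck2 (chr1:167285078-167285377, minus strand), the salvage kinase with the largest decrease upon Max loss, holds none.
Paics: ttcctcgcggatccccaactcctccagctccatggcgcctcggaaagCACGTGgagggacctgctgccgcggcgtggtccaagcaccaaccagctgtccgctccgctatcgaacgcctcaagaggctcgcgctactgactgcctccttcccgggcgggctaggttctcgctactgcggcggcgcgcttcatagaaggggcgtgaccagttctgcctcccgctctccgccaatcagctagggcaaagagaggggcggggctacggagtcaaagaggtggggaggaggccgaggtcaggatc
Ppat: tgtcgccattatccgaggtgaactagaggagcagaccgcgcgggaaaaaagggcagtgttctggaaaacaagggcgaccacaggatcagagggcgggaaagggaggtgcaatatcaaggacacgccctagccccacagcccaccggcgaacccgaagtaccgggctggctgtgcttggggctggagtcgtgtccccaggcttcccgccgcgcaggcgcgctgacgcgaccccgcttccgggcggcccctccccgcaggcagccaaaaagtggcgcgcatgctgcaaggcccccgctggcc
Impdh2: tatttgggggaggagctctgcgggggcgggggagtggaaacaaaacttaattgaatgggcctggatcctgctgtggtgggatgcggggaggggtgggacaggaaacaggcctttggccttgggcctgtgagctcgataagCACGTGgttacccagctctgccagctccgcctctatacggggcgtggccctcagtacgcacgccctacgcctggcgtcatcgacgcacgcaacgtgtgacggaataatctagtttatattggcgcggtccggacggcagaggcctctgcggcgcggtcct
Atic: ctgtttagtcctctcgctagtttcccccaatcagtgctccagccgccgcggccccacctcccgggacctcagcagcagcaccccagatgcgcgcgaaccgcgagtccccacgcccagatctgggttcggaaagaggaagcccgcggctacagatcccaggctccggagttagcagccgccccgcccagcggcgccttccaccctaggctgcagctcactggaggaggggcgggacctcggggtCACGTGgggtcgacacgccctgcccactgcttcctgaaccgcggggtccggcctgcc
Nme1: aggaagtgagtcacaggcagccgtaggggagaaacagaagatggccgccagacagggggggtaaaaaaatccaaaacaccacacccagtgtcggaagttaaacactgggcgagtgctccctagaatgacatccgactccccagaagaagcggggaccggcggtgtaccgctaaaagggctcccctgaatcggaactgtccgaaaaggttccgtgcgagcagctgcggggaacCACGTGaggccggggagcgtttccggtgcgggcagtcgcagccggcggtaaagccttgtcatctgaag
Uck2: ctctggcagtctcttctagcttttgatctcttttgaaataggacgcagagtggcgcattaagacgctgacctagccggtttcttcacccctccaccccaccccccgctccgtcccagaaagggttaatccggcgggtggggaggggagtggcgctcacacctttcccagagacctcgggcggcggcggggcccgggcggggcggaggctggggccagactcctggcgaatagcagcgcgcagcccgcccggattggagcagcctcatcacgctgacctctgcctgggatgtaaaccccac

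A window was at hand for 32 of the 35 members, all but Pfas, Dhodh and Rrm2b. CACGTG, which reads the same on both strands, was present for 6 of the 32 (18.8%), namely Paics, Atic, Impdh2, Nme1, Tyms at -61 and Dtymk at -148. It was present for 11.8% of the 10365 tested genes with a window and in 7.15% of all 32851 windows. The E2F motif TTTNGCGC, searched on both strands and with no overlap with CACGTG, was present for 0 of 32 members and for 2.81% of tested genes. These are matches of letters in a short window and say nothing of binding. The log2 fold change of EuMyc over WT had a median of 1.50 for the 6 members with CACGTG and 1.30 for the 26 without it.

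Nearly the whole pathway was higher in EuMyc cells than in WT cells, and most of it was lower in EuMyc Max KO cells than in EuMyc cells. By the edgeR quasi-likelihood test at a Benjamini-Hochberg adjusted p under 0.05, 34 of 35 members rose and 1 (Ctps2) fell in EuMyc against WT, where 71.6% of all tested genes were called (36.7% higher and 34.9% lower). The median log2 fold change was 1.43 over the members and 0.01 over all tested genes. EuMyc and WT libraries did not overlap for 35 of 35 members, as for 77.4% of tested genes. In EuMyc Max KO against EuMyc, 32 of 35 members fell and 0 rose, with a median of -1.28, where 73.7% of tested genes were called (37.6% higher and 36.1% lower) around a median of 0.03. EuMyc Max KO and EuMyc libraries did not overlap for 32 members, as for 75.9% of tested genes. Impdh1, Ctps2 and Tk1 did not pass that test, and 0 members were higher at an unadjusted p under 0.05 or by DESeq2. All 3 EuMyc libraries lay above the other 9 libraries for 32 members, which were the 32 that rose in EuMyc and fell in EuMyc Max KO. That order largely follows from the calls, and its share over all tested genes was not counted. Most tested B lineage, T cell, NK cell, macrophage and dendritic cell markers changed the opposite way in the same comparisons. Of 10 B lineage markers, 10 fell in EuMyc over WT, and in EuMyc Max KO over EuMyc 7 rose and 1 fell. In EuMyc over WT, 9 of 9 tested T cell, 5 of 6 NK cell, 7 of 8 macrophage, 5 of 6 dendritic cell and 0 of 4 neutrophil markers fell, and in EuMyc Max KO over EuMyc 9 of 9, 6 of 6, 8 of 8, 5 of 6 and 4 of 4 of the same lists rose. The 13 proliferation genes all rose in EuMyc over WT and all fell in EuMyc Max KO over EuMyc. Among 8 pro-B and pre-B markers, 6 rose and 1 fell in EuMyc over WT. In EuMyc Max KO over EuMyc, 1 of them rose and 4 fell. Of 7 tested erythroid markers, 3 rose and 0 fell in the first comparison, and 7 rose in the second. Among 6 plasma cell markers, 1 rose and 3 fell in the first, and 3 rose and 1 fell in the second. The part of these cell types, of B cell stages and of proliferating cells in the members' values was not tested.

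The design also allows the effect of Max loss to be compared between the presence and the absence of the transgene. This difference of differences, the log2 fold change of EuMyc Max KO over EuMyc minus that of Max KO over WT, was below 0 with a call for 32 members and above 0 for 1 (Ctps2), with a median of -1.10. Of all tested genes 55.7% were called (27.8% higher and 27.9% lower), around a median of 0.02. Rrm2 and Adssl1 were the 2 members without a call.

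Set against WT, EuMyc Max KO cells had 8 members that rose and 2 that fell, with a median of 0.09, where 27.8% of tested genes were called (17% higher and 10.8% lower). The libraries of these 2 groups did not overlap for 13 members, as for 41.8% of tested genes. Of the 32 members that rose in EuMyc and fell in EuMyc Max KO, 25 did not pass the test between EuMyc Max KO and WT, 6 were higher and 1 was lower. A missed threshold does not show equal levels, and the intervals below give the differences these data leave possible. These comparisons share libraries, so their values are given side by side and are not independent.

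**Figure D1:**
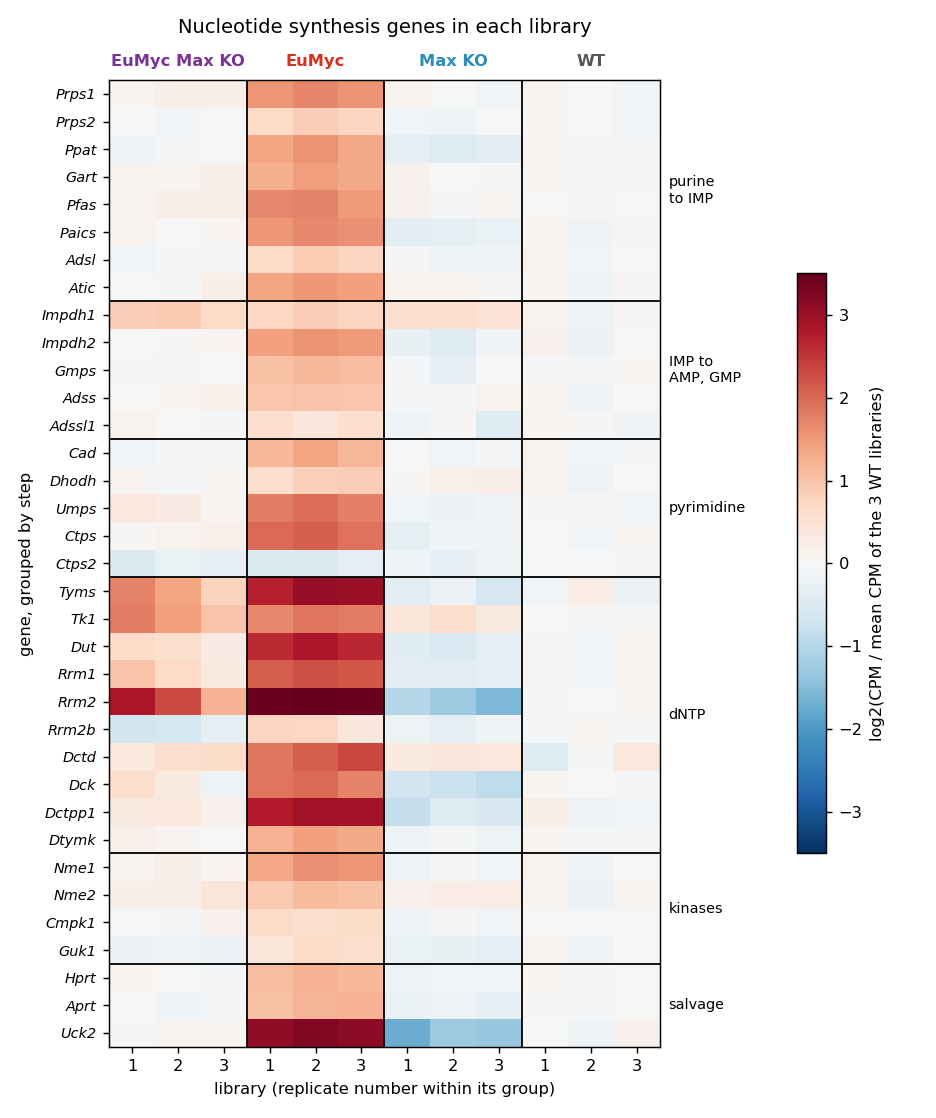
Log2 ratio of CPM to the mean CPM of the 3 WT libraries (colour scale) for the 35 genes (rows, grouped by step) in the 12 libraries (columns, by group). The 3 EuMyc columns are above the WT mean in every row but Ctps2, while in EuMyc Max KO the raised rows are chiefly dNTP genes and Impdh1.

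The enzymes that assemble IMP rose together in EuMyc cells and stood near the WT level without Max. Paics, a bifunctional enzyme of the middle of the pathway (mm10 chromosome 5, 76951307 to 76967509, plus strand), had 146, 135 and 142 CPM in the EuMyc Max KO libraries, 388, 432 and 408 in EuMyc, 102, 105 and 115 in Max KO and 140, 124 and 139 in WT. EuMyc libraries were far above all others, Max KO libraries were the lowest, and EuMyc Max KO overlapped WT. Its log2 fold change was 1.61 (SE 0.0692) for EuMyc over WT, with an edgeR adjusted p of 8.76e-10, and -1.54 (SE 0.069) for EuMyc Max KO over EuMyc, with an edgeR adjusted p of 1.43e-09. Atic, which carries out the last steps to IMP (chromosome 1, 71557150 to 71579631, plus strand), had 123, 126 and 142 CPM in EuMyc Max KO, 317, 350 and 330 in EuMyc, 131, 132 and 126 in Max KO and 131, 110 and 127 in WT. The 9 libraries outside EuMyc overlapped each other, and the log2 fold change was 1.44 (SE 0.0753) for EuMyc over WT.

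Pfas, which makes the formylglycinamidine intermediate (chromosome 11, 68985697 to 69008460, minus strand), had 66.8, 73.2 and 71.6 CPM in EuMyc Max KO, 199, 206 and 174 in EuMyc, 68.3, 60 and 66.4 in Max KO and 60.9, 64.2 and 61 in WT. Its difference of differences was -1.52 (SE 0.102, edgeR adjusted p = 2.18e-07), the second smallest p among the members after Ctps. Prps1, a synthetase of the activated ribose that purines are built on, had 36.6, 40.4 and 40.6 CPM in EuMyc Max KO, 101, 114 and 104 in EuMyc, 37.1, 34.6 and 32.5 in Max KO and 37.2, 34.2 and 32.7 in WT. Its paralogue Prps2 had 119, 113 and 121 CPM in EuMyc Max KO, 196, 219 and 203 in EuMyc, 113, 107 and 121 in Max KO and 128, 121 and 114 in WT. Prps1 rose more than Prps2 in EuMyc over WT, with log2 fold changes of 1.62 (SE 0.0793) and 0.77 (SE 0.0651), intervals that do not overlap. Reads of Prps1 are uncertain, because Prps1l3, a Prps1-like gene counted separately, also took 87.1 to 98.3 CPM in EuMyc Max KO, 172 to 181 CPM in EuMyc, 83.7 to 98.2 CPM in Max KO and 88.5 to 97.6 CPM in WT.

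The remaining members of this stretch moved the same way. Ppat, the amidotransferase of the committed step, averaged 49.2 ± 1.85 CPM in EuMyc Max KO, 139 ± 11.7 CPM in EuMyc, 39.1 ± 1.46 CPM in Max KO and 51.4 ± 2.93 CPM in WT (SD, n = 3 each). Gart, which catalyses several steps, averaged 135 ± 6.45 CPM in EuMyc Max KO, 312 ± 25.7 CPM in EuMyc, 126 ± 7.93 CPM in Max KO and 122 ± 6.66 CPM in WT. Adsl, a lyase used both before IMP and on the way to AMP, rose least of these 3 in EuMyc over WT. It averaged 62.4 ± 1.48 CPM in EuMyc Max KO, 111 ± 9.22 CPM in EuMyc, 60.9 ± 1.46 CPM in Max KO and 65.3 ± 4.94 CPM in WT. All 8 genes of the stretch rose in EuMyc over WT (median 1.44), all 8 fell in EuMyc Max KO over EuMyc (median -1.40), and 0 of 8 passed the test between EuMyc Max KO and WT by edgeR. At an unadjusted p under 0.05, 2 of these 8 (Pfas and Prps1) differed between EuMyc Max KO and WT, DESeq2 called 0 of 8, and Pfas was called without EuMyc replicate 3, at an edgeR adjusted p of 0.0459. The 95% intervals of those 8 log2 differences from WT lay within -0.23 and 0.36.

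**Figure D2:**
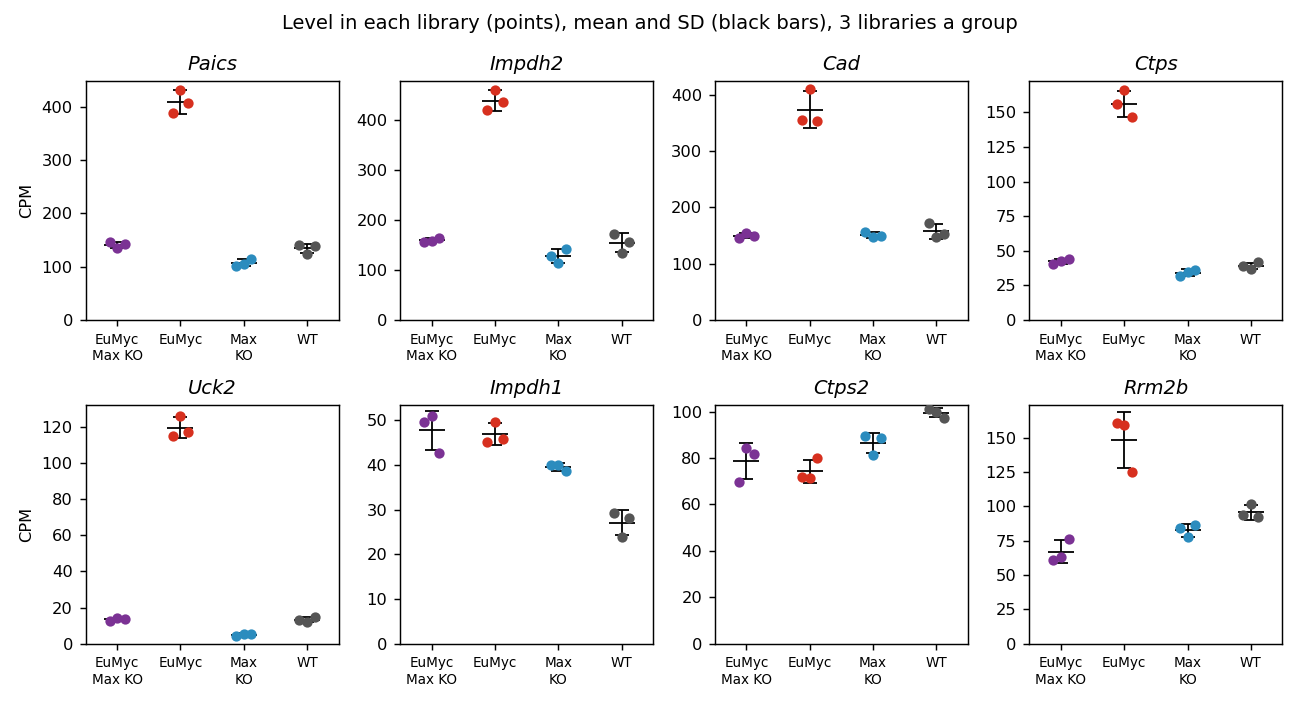
CPM (vertical axis, from 0) of 8 genes in each library (points) with the group mean and SD (black bars, 3 libraries a group). Paics, Impdh2, Cad, Ctps and Uck2 stand high in EuMyc alone, Impdh1 is raised in all 3 groups against WT, Ctps2 is highest in WT, and Rrm2b is lowest in EuMyc Max KO.

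At the branch from IMP, the paralogues Impdh2 and Impdh1 differed. Both encode IMP dehydrogenase, the rate-limiting enzyme of the way to GMP. Impdh2 (chromosome 9, 108560286 to 108565584, plus strand) had 156, 159 and 164 CPM in EuMyc Max KO, 420, 461 and 436 in EuMyc, 129, 114 and 142 in Max KO and 173, 135 and 157 in WT. Impdh1 (chromosome 6, 29200434 to 29216364, minus strand) had 49.5, 50.8 and 42.7 CPM in EuMyc Max KO, 45, 49.6 and 45.8 in EuMyc, 40, 39.9 and 38.5 in Max KO and 29.2, 23.9 and 28.1 in WT. Impdh2 was high in EuMyc alone, while Impdh1 was higher than WT in all 3 other groups. Impdh1 rose in EuMyc Max KO over WT by 0.82 log2 units (SE 0.0904, edgeR adjusted p = 0.00017), in EuMyc over WT by 0.79 (SE 0.0904, edgeR adjusted p = 4.11e-06) and in Max KO over WT by 0.54 (SE 0.0907, edgeR adjusted p = 0.0026). Between EuMyc Max KO and EuMyc its log2 difference was 0.03, with a 95% interval of -0.18 to 0.23.

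The other members of the branch rose in EuMyc and fell in EuMyc Max KO over EuMyc. Adss, adenylosuccinate synthase of the AMP branch, had 93.1, 97.9 and 105 CPM in EuMyc Max KO, 182, 188 and 182 in EuMyc, 90.5, 89.5 and 102 in Max KO and 98.6, 86.6 and 95.1 in WT. Its muscle-type paralogue Adssl1 had 23.5, 21.9 and 21 CPM in EuMyc Max KO, 32.5, 28.4 and 32.7 in EuMyc, 19.8, 22.3 and 15.7 in Max KO and 23, 22.2 and 19.8 in WT. Adssl1 gave the smallest increase among the 34 members that rose in EuMyc over WT, at 0.53 (SE 0.119), and its difference of differences was -0.33, with a 95% interval of -0.72 to 0.06. That call was made only without Max KO replicate 3, at an edgeR adjusted p of 0.0259. Gmps, which aminates XMP to GMP, averaged 62.2 ± 1.11 CPM in EuMyc Max KO, 136 ± 5.71 CPM in EuMyc, 58.8 ± 5.92 CPM in Max KO and 64.3 ± 2.43 CPM in WT (SD, n = 3 each).

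Pyrimidine synthesis showed the same pattern, except for Ctps2. Cad, a multifunctional enzyme of the opening steps (chromosome 5, 31054780 to 31078479, plus strand), had 146, 154 and 149 CPM in EuMyc Max KO, 355, 411 and 354 in EuMyc, 157, 147 and 150 in Max KO and 172, 147 and 153 in WT. EuMyc stood above all other libraries, and the other 3 groups overlapped. The log2 fold change of Cad was 1.24 (SE 0.0733, edgeR adjusted p = 8.73e-09) for EuMyc over WT and -1.32 (SE 0.0734, edgeR adjusted p = 6.78e-09) for EuMyc Max KO over EuMyc. Umps, which turns orotate into UMP, had 52.4, 50.2 and 43.4 CPM in EuMyc Max KO, 142, 159 and 140 in EuMyc, 38.6, 35.5 and 37.4 in Max KO and 42.2, 42.2 and 38.2 in WT. Its increase of 0.25 in EuMyc Max KO over WT (edgeR adjusted p = 0.0362) was lost in 11 of 19 alternatives, among them those without WT replicate 1, 2 or 3, Max KO replicate 3, EuMyc replicate 2 or EuMyc Max KO replicate 1 or 2, at an adjusted p of up to 0.194. Dhodh, the mitochondrial enzyme that makes orotate, averaged 23.9 ± 0.987 CPM in EuMyc Max KO, 39.6 ± 3.79 CPM in EuMyc, 25.9 ± 1.70 CPM in Max KO and 23.2 ± 1.92 CPM in WT (SD, n = 3 each).

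CTP synthase is encoded by Ctps and Ctps2, which moved in opposite directions in EuMyc. Ctps (chromosome 4, 120539868 to 120570276, minus strand) had 40.5, 42.5 and 44.1 CPM in EuMyc Max KO, 156, 166 and 147 in EuMyc, 31.5, 35 and 36.2 in Max KO and 39.1, 36.8 and 41.6 in WT. Ctps2 (chromosome X, 162901238 to 163032508, plus strand) had 69.7, 84.5 and 81.8 CPM in EuMyc Max KO, 71.8, 71.2 and 80.1 in EuMyc, 89.4, 81.5 and 88.6 in Max KO and 101, 100 and 97.3 in WT. Ctps was about as low in EuMyc Max KO as in WT, whereas Ctps2 was lower in both transgenic groups than in WT. The Max KO libraries also lay below WT for Ctps2, at a log2 difference of -0.20 that was not called (edgeR adjusted p = 0.0908). Ctps rose by 1.998 log2 units in EuMyc over WT (SE 0.0746, edgeR adjusted p = 3.8e-10), and Ctps2 changed by -0.42 (SE 0.076, edgeR adjusted p = 0.000254). Ctps2 was also lower in EuMyc Max KO over WT, by -0.34 (SE 0.0759, edgeR adjusted p = 0.0062). Ctps had the smallest p of all members in the difference of differences, at -1.69 (SE 0.104, edgeR adjusted p = 1.26e-07). The value of Ctps2 there, 0.28, lost its call in 7 of 18 alternatives, among them those without WT replicate 1, Max KO replicate 2, EuMyc replicate 1 or 2, or EuMyc Max KO replicate 2 or 3, at an adjusted p of up to 0.104.

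The dNTP genes rose most in EuMyc and were the only step in which several members stayed above WT in EuMyc Max KO by a tested difference. All 10 rose in EuMyc over WT, with a median log2 fold change of 2.15, and 9 fell in EuMyc Max KO over EuMyc, with a median of -1.53. Against WT, 5 of the 10 rose in EuMyc Max KO (Tyms, Tk1, Dut, Rrm1 and Rrm2) and 1 fell (Rrm2b). Rrm1, the large subunit of ribonucleotide reductase (chromosome 7, 102441695 to 102469771, plus strand), had 213, 172 and 136 CPM in EuMyc Max KO, 461, 503 and 482 in EuMyc, 82.6, 80 and 84 in Max KO and 109, 98.9 and 111 in WT. Rrm2, its small subunit in dividing cells (chromosome 12, 24708241 to 24714146, plus strand), had 222, 153 and 72 CPM in EuMyc Max KO, 334, 408 and 339 in EuMyc, 15.6, 12.8 and 10.4 in Max KO and 29.4, 30.8 and 33.1 in WT. For both subunits the 4 groups did not overlap, in the order EuMyc, EuMyc Max KO, WT and Max KO.

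Rrm2 rose by 3.54 log2 units in EuMyc over WT (SE 0.362, edgeR adjusted p = 1.33e-05) and by 2.26 in EuMyc Max KO over WT (SE 0.349, edgeR adjusted p = 0.00221), and changed by -1.28 in EuMyc Max KO over EuMyc (SE 0.327, edgeR adjusted p = 0.00572). Its effect of Max loss did not pass the test of a difference between transgenic and nontransgenic cells, at -0.02 with a wide 95% interval of -1.19 to 1.15. Rrm2b, the small subunit used outside S phase and a known p53 target, went the other way in EuMyc Max KO. It had 61.3, 63 and 76.5 CPM in EuMyc Max KO, 161, 159 and 125 in EuMyc, 84, 77.6 and 86.7 in Max KO and 93.5, 102 and 92 in WT. All EuMyc Max KO libraries were below all others, and the log2 fold change over WT was -0.52 (SE 0.106, edgeR adjusted p = 0.00405).

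Dut, which removes dUTP (chromosome 2, 125247190 to 125258608, plus strand), had 53.4, 49.9 and 41.1 CPM in EuMyc Max KO, 205, 243 and 212 in EuMyc, 25.4, 23.6 and 26.8 in Max KO and 34.8, 31.5 and 35.3 in WT. Its log2 fold change was -2.19 in EuMyc Max KO over EuMyc (SE 0.0986, edgeR adjusted p = 1.49e-09) and 0.51 in EuMyc Max KO over WT (SE 0.0984, edgeR adjusted p = 0.00308). Dck, the kinase that salvages deoxycytidine (chromosome 5, 88764996 to 88783281, plus strand), had 137, 112 and 79.4 CPM in EuMyc Max KO, 326, 354 and 300 in EuMyc, 56.3, 52.7 and 48.2 in Max KO and 93.2, 88.8 and 86.2 in WT. EuMyc Max KO libraries spanned the WT range for Dck, and its log2 difference of 0.30 from WT (95% interval -0.07 to 0.66) passed the test only without EuMyc Max KO replicate 3, at 0.48 and an edgeR adjusted p of 0.00122.

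Tyms and Tk1 supply thymidine nucleotides by synthesis and by salvage, and their library values are given because of what they showed. Tyms had 36.8, 28.8 and 19.1 CPM in EuMyc Max KO, 72.5, 90.9 and 89.1 in EuMyc, 8.36, 9.65 and 7.31 in Max KO and 10.4, 13.2 and 9.59 in WT. Tk1 had 74, 58.2 and 43 CPM in EuMyc Max KO, 68.3, 78.3 and 73.6 in EuMyc, 28.7, 32.5 and 26.6 in Max KO and 21.2, 22.1 and 20.7 in WT. Tk1 was the sole dNTP gene whose EuMyc Max KO and EuMyc libraries overlapped, with a log2 difference of -0.33 (95% interval -0.68 to 0.02, edgeR adjusted p = 0.0672), called only without EuMyc Max KO replicate 1 or with the replicate number as a block, at values of down to -0.54. Against WT, Tk1 rose by 1.45 (SE 0.159, edgeR adjusted p = 0.000224) and Tyms by 1.35 (SE 0.22, edgeR adjusted p = 0.00195) in EuMyc Max KO.

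The EuMyc Max KO libraries did not agree closely on these genes. The highest of the 3 was 3.08 times the lowest for Rrm2, 1.93 times for Tyms, 1.73 times for Dck, 1.72 times for Tk1 and 1.57 times for Rrm1. Replicate 1 was the highest and replicate 3 the lowest for 7 of the 10 dNTP genes (Tyms, Tk1, Dut, Rrm1, Rrm2, Dck and Dtymk), and 3 members outside this step (Adssl1, Umps and Hprt) had the same order. The share of all tested genes with this order was not counted, so the count does not set the dNTP genes apart. Mki67, a proliferation marker, was at 1400, 1080 and 414 CPM and Slc4a1 at 3200, 2080 and 488 CPM in the same 3 libraries. Of the 13 proliferation genes 13 rose in EuMyc Max KO over WT, and of 7 tested erythroid markers 7 did. So did 7 of 8 macrophage and 4 of 4 tested neutrophil markers, with C1qa, a macrophage gene, at 502, 353 and 250 CPM and S100a9, a neutrophil gene, at 76.3, 70.7 and 6.91 CPM in the 3 libraries. Of 10 B lineage markers 7 fell and 0 rose in EuMyc Max KO over WT. The part of proliferating, erythroid, macrophage, neutrophil or B lineage cells in the dNTP result was not tested. Without EuMyc Max KO replicate 1, the increases over WT were 1.85 for Rrm2, 1.25 for Tk1, 1.11 for Tyms, 0.53 for Rrm1 and 0.43 for Dut, and without replicate 3 they were 2.59, 1.63, 1.57, 0.85 and 0.61 for the same genes. All 5 kept their call in each of the 19 alternatives, with adjusted p of up to 0.0326.

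**Figure D3:**
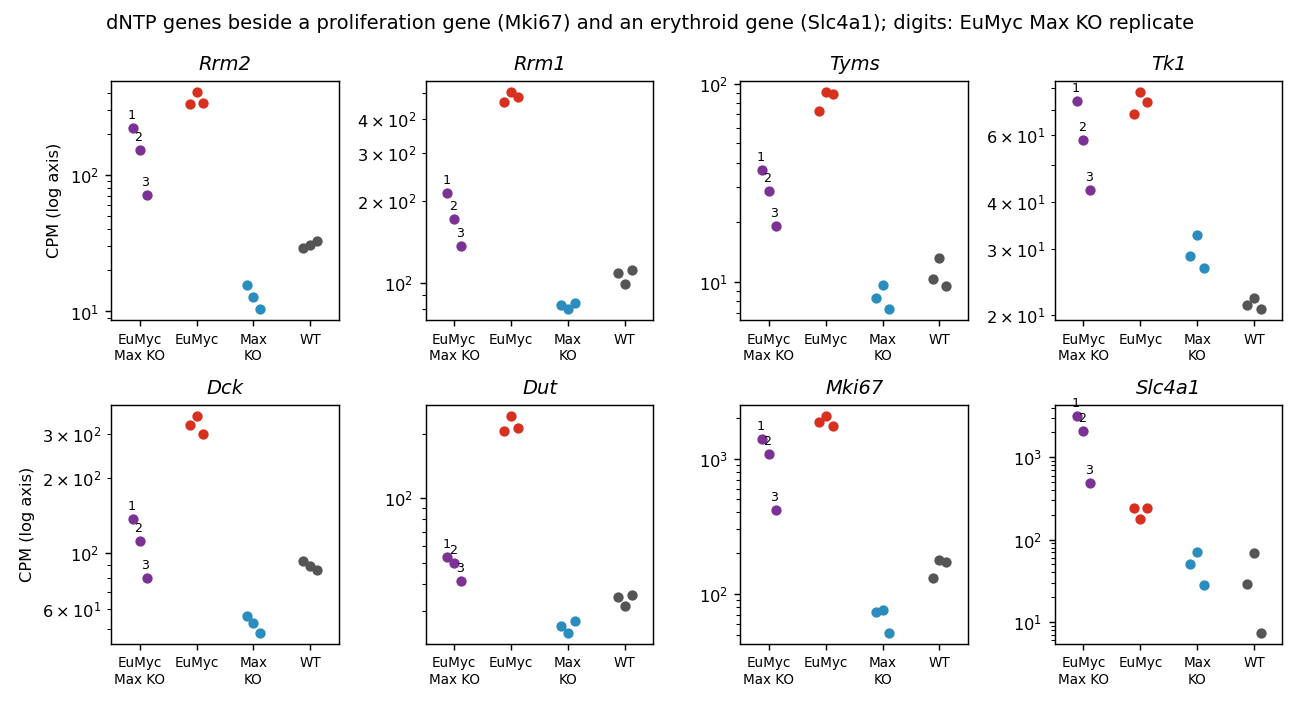
CPM (vertical log axes) in each library of 6 dNTP genes, of the proliferation gene Mki67 and of the erythroid gene Slc4a1, with digits giving the EuMyc Max KO replicate. In EuMyc Max KO, replicate 1 is the highest and replicate 3 the lowest in all 8 panels. The dNTP genes shown are among the 7 with this order, and Rrm2b and Dctd, not shown, had the reverse order.

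The other 3 dNTP genes did not pass the test between EuMyc Max KO and WT, which does not show equal levels. Dctpp1, a pyrophosphatase that breaks down dCTP, averaged 17.0 ± 1.47 CPM in EuMyc Max KO, 102 ± 6.10 CPM in EuMyc, 9.11 ± 1.21 CPM in Max KO and 13.9 ± 2.09 CPM in WT (SD, n = 3 each). It fell by 2.58 on the log2 scale in EuMyc Max KO over EuMyc (SE 0.118, edgeR adjusted p = 1.71e-09). Dctd, which deaminates dCMP to dUMP, was low throughout, at 6.89 ± 0.668 CPM in EuMyc Max KO, 20.7 ± 3.51 CPM in EuMyc, 6.18 ± 0.143 CPM in Max KO and 4.78 ± 1.33 CPM in WT. Dtymk, the kinase for dTMP, averaged 44.2 ± 2.41 CPM in EuMyc Max KO, 104 ± 7.09 CPM in EuMyc, 38.3 ± 1.96 CPM in Max KO and 41.4 ± 2.62 CPM in WT. The log2 differences of EuMyc Max KO from WT were 0.29 for Dctpp1 (95% interval 0.01 to 0.56), 0.53 for Dctd (0.08 to 0.98) and 0.10 for Dtymk (-0.08 to 0.27), so that Dctd differed by as much as Dut, with a wider interval. Dctpp1 was called there without WT replicate 1 or EuMyc Max KO replicate 3 (adjusted p of down to 0.033), and Dctd without WT replicate 3 or with a replicate block (down to 0.0184).

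Of the kinases that phosphorylate nucleotides for use, Nme2, Cmpk1 and Guk1 rose less in EuMyc over WT than the median member, and Nme1 slightly more. Nme1 and Nme2, nucleoside diphosphate kinases, are neighbours on the minus strand of chromosome 11, where the start of Nme2 lies 720 bases from the end of Nme1. Nme1 had 99.2, 108 and 98.6 CPM in EuMyc Max KO, 241, 285 and 272 in EuMyc, 83.5, 89.7 and 88.4 in Max KO and 102, 86.5 and 93.5 in WT. Nme2 had 210, 212 and 242 CPM in EuMyc Max KO, 340, 392 and 370 in EuMyc, 201, 215 and 218 in Max KO and 192, 158 and 193 in WT. Nme1 rose by 1.50 log2 units (SE 0.0768) and Nme2 by 1.02 (SE 0.0877) in EuMyc over WT. Nme2 was also higher in EuMyc Max KO over WT, by 0.29 (SE 0.0872, edgeR adjusted p = 0.0251), a call lost without WT replicate 2, Max KO replicate 3 or EuMyc Max KO replicate 3 and with the 6 libraries fitted alone, at an adjusted p of up to 0.15.

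Cmpk1, the UMP and CMP kinase, averaged 110 ± 8.39 CPM in EuMyc Max KO, 167 ± 6.79 CPM in EuMyc, 101 ± 4.38 CPM in Max KO and 108 ± 0.377 CPM in WT (SD, n = 3 each). Guk1, the GMP kinase, averaged 22.9 ± 0.244 CPM in EuMyc Max KO, 39.3 ± 3.70 CPM in EuMyc, 21.9 ± 0.608 CPM in Max KO and 26.4 ± 2.20 CPM in WT. All 4 kinases rose in EuMyc over WT (median 0.83) and fell in EuMyc Max KO over EuMyc (median -0.76).

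Among the salvage enzymes, Uck2 moved far more than Hprt and Aprt. Hprt, which recovers hypoxanthine and guanine (chromosome X, 52988137 to 53021659, plus strand), had 97.2, 93 and 90.1 CPM in EuMyc Max KO, 197, 219 and 204 in EuMyc, 81.8, 88.1 and 87.8 in Max KO and 98.6, 88.2 and 93.2 in WT. Aprt, which recovers adenine, had 35.6, 32.6 and 33.5 CPM in EuMyc Max KO, 72.7, 81.5 and 81.7 in EuMyc, 30.4, 31.1 and 29.3 in Max KO and 36.6, 33.9 and 35.8 in WT. Both rose by 1.15 log2 units in EuMyc over WT and overlapped WT in EuMyc Max KO. Uck2, a uridine and cytidine kinase whose library values are shown because of its response (chromosome 1, 167222883 to 167285320, minus strand), had 12.7, 14.2 and 13.9 CPM in EuMyc Max KO, 115, 126 and 117 in EuMyc, 4.01, 5.5 and 5.31 in Max KO and 13.1, 11.9 and 14.8 in WT. EuMyc libraries were the highest and Max KO libraries the lowest, while EuMyc Max KO overlapped WT. The log2 fold change of Uck2 was 3.17 for EuMyc over WT (SE 0.111, edgeR adjusted p = 2.86e-10), -3.13 for EuMyc Max KO over EuMyc (SE 0.111, edgeR adjusted p = 3.26e-10) and 0.04 for EuMyc Max KO over WT (95% interval -0.22 to 0.29).

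Without the transgene, a smaller group was lower in Max KO than in WT. In Max KO against WT, 7 members fell, 1 rose and 27 did not pass the test, with a median log2 fold change of -0.13, where 15% of tested genes were called (7.27% higher and 7.74% lower) around a median of 0.00. Uck2 changed most, by -1.43 (SE 0.121, edgeR adjusted p = 2.71e-05), followed by Dck at -0.77 (SE 0.16, edgeR adjusted p = 0.0113) and Dctpp1 at -0.62 (SE 0.125, edgeR adjusted p = 0.0076). Dut fell by 0.42 (edgeR adjusted p = 0.0167), Ppat by 0.40 (adjusted p = 0.00432), Paics by 0.32 (adjusted p = 0.00941) and Aprt by 0.23 (adjusted p = 0.0467), and Impdh1 rose by 0.54, all by the same edgeR test. Not all members moved one way, since 10 of the 35 log2 fold changes were above 0. The 9 pyrimidine and kinase genes held 0 calls by edgeR, 4 differed at an unadjusted p under 0.05 (Ctps, Ctps2, Guk1 and Nme2), and DESeq2 called 2 of them, Ctps2 and Guk1. The groups did not overlap for 18 of 35 members, as for 38.1% of tested genes. Of the 13 proliferation genes 6 fell and 0 rose in the same comparison, and 4 of 6 plasma cell markers fell and 0 rose. Macrophage markers rose with a call for 2 of 8 and fell for 0, while B lineage markers fell for 2 of 10 and rose for 0. The part of these genes and cell types in the members' values was not tested.

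Some of these calls rested on single libraries or on the fit. Aprt was lost in 12 of 20 alternatives, among them those that left out EuMyc Max KO replicate 2, EuMyc replicate 3, Max KO replicate 1, 2 or 3, or WT replicate 1 or 3 (adjusted p of up to 0.113), and Dut when either of Max KO replicates 1 and 2 or WT replicate 1 was left out (up to 0.0656). Rrm2, at 15.6, 12.8 and 10.4 CPM in Max KO against 29.4, 30.8 and 33.1 CPM in WT, had a log2 fold change of -1.26 and missed the threshold with an edgeR adjusted p of 0.0533. It was called without EuMyc Max KO replicate 1 or 3 and in 4 other alternatives, at an adjusted p of down to 1.9e-05, and Rrm1 (-0.37, adjusted p = 0.0668) was called in the same 6. The count of 8 members called became 12 without EuMyc Max KO replicate 1, 11 without replicate 3, and 6 without any of WT replicate 1, Max KO replicate 1 and Max KO replicate 2, each left out by itself. The labels do not say what the replicate numbers stand for. Deviations from the group means correlated at 0.244, 0.39 and 0.105 between Max KO and WT libraries of the same number. For differing numbers the correlations were -0.319 to 0.0873. Deviations from a group mean cancel within the group, so these values are not independent of those for the same number. With the number as a block, 7 members were called in the fit of 12 libraries (13.5% of tested genes). A fit of the 6 Max KO and WT libraries alone with this block called 13 (20.6% of tested genes).

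Between the groups with the Max knockout, part of the pathway was higher with the transgene. In EuMyc Max KO against Max KO, 13 of 35 members rose and 0 fell, with a median log2 fold change of 0.17, where 14.4% of tested genes were called (10.7% higher and 3.69% lower). The groups did not overlap for 20 members, as for 32.3% of tested genes. Of the 13, 7 were dNTP genes: Rrm2 at 3.52 (SE 0.378), Tyms at 1.74, Rrm1 at 1.08, Dck at 1.07, Tk1 at 0.997, Dut at 0.93 and Dctpp1 at 0.90. Uck2 rose by 1.46 (SE 0.12, edgeR adjusted p = 9.3e-05), to 13.6 ± 0.781 CPM in EuMyc Max KO against 4.94 ± 0.811 CPM in Max KO (SD, n = 3 each). The remaining 5 changed by less than 0.40 each, namely Paics, Umps, Ppat, Impdh2 and Ctps. The call of Impdh2 was lost in 10 of 19 alternatives, among them those without WT replicate 3, EuMyc replicate 1 or 2, Max KO replicate 1 or 2 or any EuMyc Max KO replicate (adjusted p of up to 0.129), and that of Ctps without Max KO replicate 1 or EuMyc Max KO replicate 2 and with the 6 libraries fitted alone (up to 0.0727). No alternative ended the other 11 calls, and 1 member fell at an unadjusted p under 0.05, Rrm2b (-0.31), which DESeq2 did not call but which was called without EuMyc replicate 3 or EuMyc Max KO replicate 3 (adjusted p of down to 0.00959). Among the members that did not pass the test, Atic (0.01) and Cad (-0.02) had 95% intervals of -0.16 to 0.18 and of -0.18 to 0.15. The 13 proliferation genes all rose here too, as did 5 of 7 tested erythroid and 4 of 8 pro-B and pre-B markers. Of 6 dendritic cell markers 2 fell, as did 2 of 10 B lineage markers, and 0 of either list rose. The part of all these cells in the result was not tested.

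**Figure D4:**
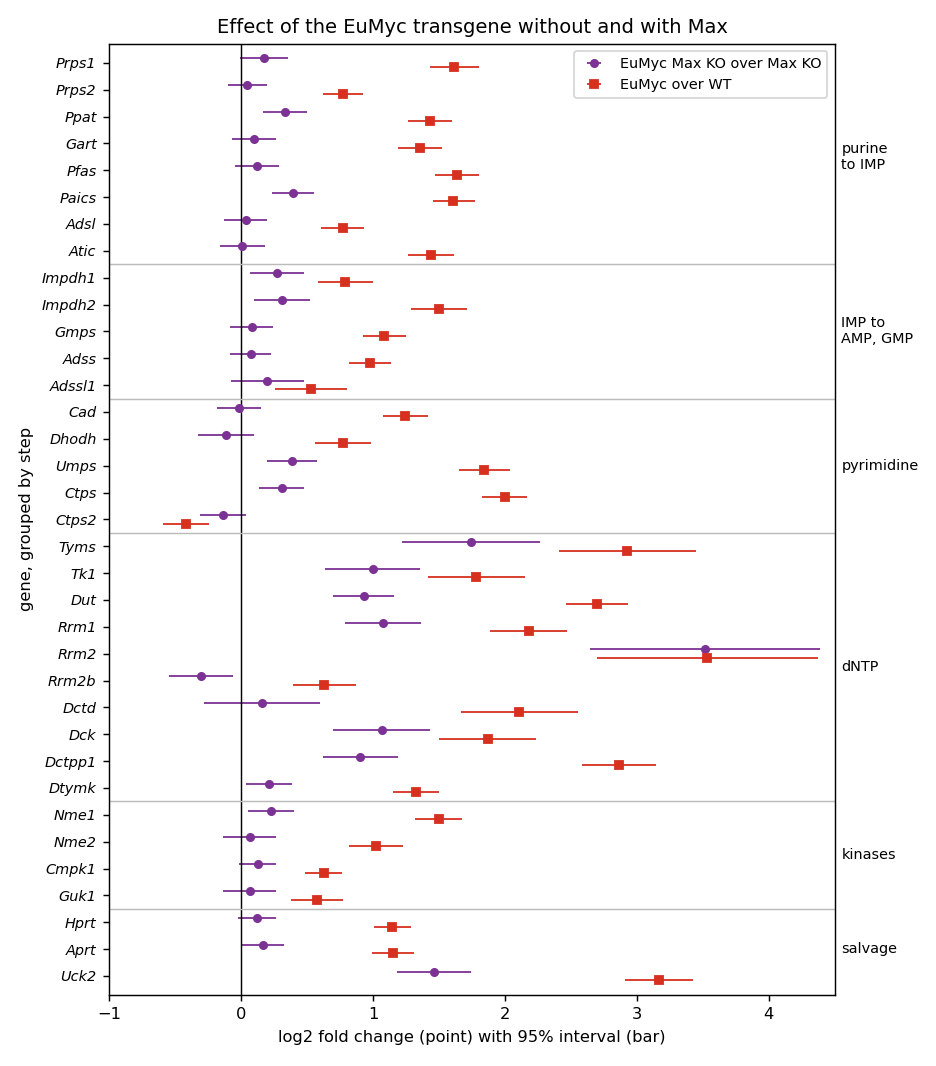
Log2 fold change (points) with its 95% interval (bars) for the 35 genes, for EuMyc Max KO over Max KO (circles) and EuMyc over WT (squares). The intervals of a gene overlap for Rrm2, Adssl1 and Ctps2, and the circles lie nearer to 0 than the squares, as at Atic (0.01 against 1.44) and Cad (-0.02 against 1.24).

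Ratios of paralogues within a library do not depend on library scaling and are given without a test. Impdh2 had 3.14 to 3.85 reads per Impdh1 read in EuMyc Max KO, 9.29 to 9.53 in EuMyc, 2.86 to 3.70 in Max KO and 5.60 to 5.92 in WT. This ratio was therefore lower in both groups without Max than in either group with it. Ctps had 0.504 to 0.580 reads per Ctps2 read in EuMyc Max KO, 1.84 to 2.33 in EuMyc, 0.352 to 0.429 in Max KO and 0.367 to 0.428 in WT, so that Ctps exceeded Ctps2 in EuMyc alone. Rrm2 had 0.940 to 3.62 reads per Rrm2b read in EuMyc Max KO, 2.07 to 2.72 in EuMyc, 0.120 to 0.186 in Max KO and 0.302 to 0.359 in WT. In that pair both transgenic groups stood above both others, and EuMyc Max KO spanned EuMyc.

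The remaining pairs shifted less. Prps1 had 0.307 to 0.359 reads per Prps2 read in EuMyc Max KO, 0.511 to 0.521 in EuMyc, 0.269 to 0.328 in Max KO and 0.282 to 0.292 in WT. Nme1 had 0.407 to 0.510 reads per Nme2 read in EuMyc Max KO, 0.708 to 0.735 in EuMyc, 0.405 to 0.417 in Max KO and 0.485 to 0.549 in WT. Adss had 3.97 to 5.02 reads per Adssl1 read in EuMyc Max KO, 5.58 to 6.60 in EuMyc, 4.01 to 6.46 in Max KO and 3.91 to 4.81 in WT, the one pair in which EuMyc overlapped Max KO. These are ratios of reads, not of molecules, since gene lengths differ.

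**Figure D5:**
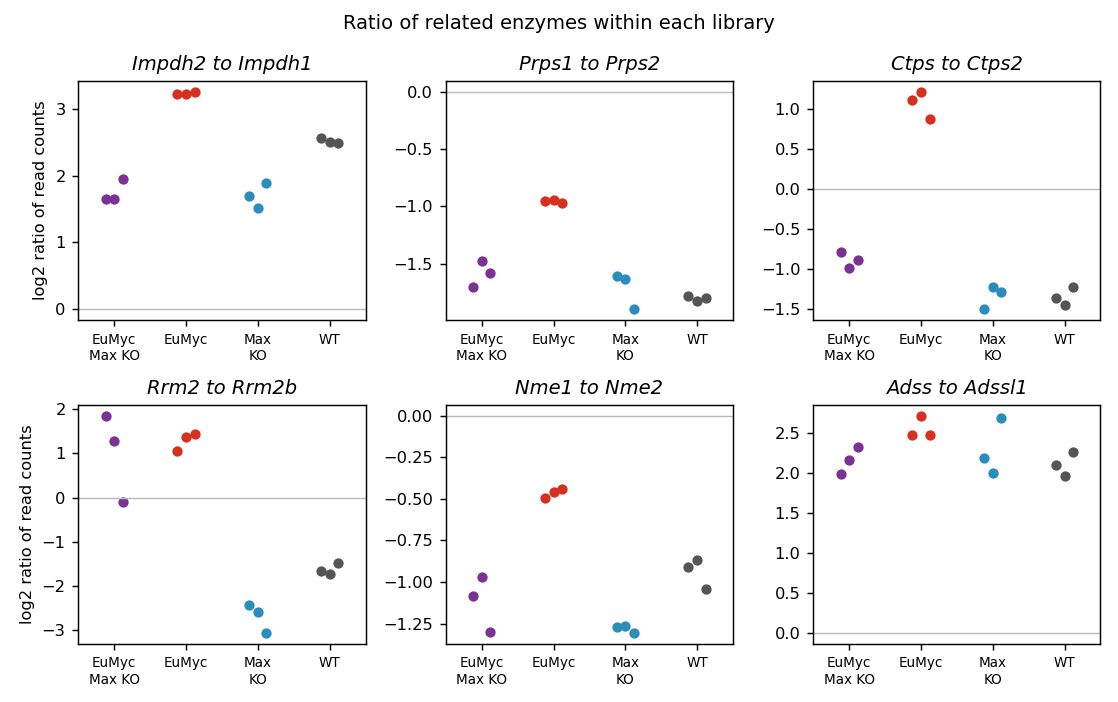
Log2 ratio of read counts (vertical axis) of 6 pairs of related genes in each library (points). Impdh2 to Impdh1 is below WT in both groups without Max, Rrm2 to Rrm2b is above WT in both transgenic groups, and Prps1 to Prps2, Ctps to Ctps2 and Nme1 to Nme2 are highest in EuMyc.

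Per kilobase of annotated exon, Nme2 had the highest mean level of the 35 genes in each group, at 189 CPM per kb in EuMyc Max KO, 314 in EuMyc, 180 in Max KO and 155 in WT. Hprt was next in each group, at 72.5 CPM per kb in EuMyc Max KO, 160 in EuMyc, 66.6 in Max KO and 72.4 in WT. The order below them differed. Rrm2 was in the third place in EuMyc Max KO at 53.8 ± 27.1 CPM per kb, a spread that takes in Impdh2 at 51.9 ± 1.31, while in EuMyc the third place went to Dctpp1 at 150 ± 9 and in WT to Impdh2 at 50.4 ± 6.20 (SD, n = 3 each). The lowest means were those of Dctd in EuMyc Max KO at 2.02 ± 0.196, in EuMyc at 6.05 ± 1.03 and in WT at 1.40 ± 0.390 CPM per kb, and of Uck2 in Max KO at 0.904 ± 0.148. In EuMyc, Dctd and Dhodh (6.26 ± 0.603) differed by less than their spread, and in WT the libraries of Dctd overlapped those of Tyms (1.82 ± 0.311).

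Of 51 further genes of nucleotide metabolism listed beside the pathway (folate supply, other salvage and kinases, breakdown and pool control), 45 were tested. In EuMyc against WT 25 rose and 11 fell (median 0.67), in EuMyc Max KO against EuMyc 10 rose and 24 fell (median -0.43), and in Max KO against WT 2 rose and 4 fell (median 0.02). The shares called in either direction, 80%, 75.6% and 13.3%, were near those over all tested genes, 71.6%, 73.7% and 15%. By direction, the further genes leaned the same way as the members in the first 2 comparisons. Of all tested genes, 36.7% were higher and 34.9% lower in EuMyc over WT (median 0.01). In EuMyc Max KO over EuMyc, 37.6% were higher and 36.1% lower (median 0.03). Of the 7 folate genes, which supply carbon units to purine and thymidylate synthesis, 6 rose in EuMyc over WT and 6 fell in EuMyc Max KO over EuMyc. Breakdown and pool control genes were divided, with 7 of 19 higher and 7 lower in EuMyc over WT. Shmt2, the mitochondrial serine hydroxymethyltransferase, averaged 99.5 ± 0.551 CPM in EuMyc Max KO, 342 ± 15.4 CPM in EuMyc, 77.6 ± 0.960 CPM in Max KO and 102 ± 10.6 CPM in WT (SD, n = 3 each).

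Shmt1, the cytosolic form, rose with Max loss alone, to 31.6 ± 2.04 CPM in Max KO against 15.9 ± 2.49 CPM in WT (log2 0.99, SE 0.125, edgeR adjusted p = 0.00047), and also in EuMyc over WT (3.23). It averaged 36.5 ± 3.86 CPM in EuMyc Max KO against 150 ± 19.0 CPM in EuMyc. Its difference of differences was -3.02 (SE 0.174, edgeR adjusted p = 8.85e-08). Mthfd2, a mitochondrial folate enzyme, changed by 2.06 in EuMyc over WT and by -1.54 in EuMyc Max KO over EuMyc, Mthfd1 by 1.40 and -1.29, and Mthfd1l by 1.48 and -1.20 in the same comparisons, all with a call. Ak3, a mitochondrial adenylate kinase family member, changed by 1.11 and -0.48. Samhd1, which degrades dNTPs, fell in EuMyc over WT by 0.54 on the log2 scale, where the synthesis genes rose, and in Max KO over WT by 0.37. It averaged 508 ± 37.3 CPM in EuMyc Max KO, 483 ± 32.3 CPM in EuMyc, 544 ± 33.4 CPM in Max KO and 703 ± 20.2 CPM in WT, and was lower than WT in all 3 groups by the edgeR test. Entpd1, an ectoenzyme that removes phosphates from extracellular ATP, changed by -1.67 in EuMyc over WT and by 1.92 in EuMyc Max KO over EuMyc. Nt5e, which makes adenosine from extracellular AMP, was low in all libraries and changed by -2.57 in EuMyc over WT and by -2.12 in Max KO over WT.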

How the data were processed

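Each of the 12 libraries, 3 for each of 4 genotypes, holds total RNA of B220+ spleen cells of a single mouse, per the labels. The submitters' processing notes name the genome build mm10 and the tools HTSeq 0.6.1, TopHat2 2.1.0 and bcl2fastq 1.8.4. The authors deposited raw counts of reads for each symbol, in a table for each library and without normalization. Neither the annotation nor the strand setting of the counting is given in the sources used here, so overlapping genes and genes with near-identical copies are uncertain. Another 5 rows of each table hold totals of unassigned reads, and these stayed out of all sums and tests. Reads outside genes made up 12.52% to 20.31%, reads mapping to several places 20.3% to 27.93% and ambiguous reads 0.7475% to 1.452% of a table.

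The analysis ran in edgeR 4.0.16 under R 4.3.3. Genes passing filterByExpr on the 4 groups (12878 of 24421) were scaled by TMM and fitted in a single quasi-likelihood model of all 12 libraries (glmQLFit with robust estimation, 8 residual degrees of freedom). P-values were adjusted over all tested genes by Benjamini-Hochberg, with calls at an adjusted p under 0.05. Intervals are 95% and use the model's SE. For a gene by itself, 3 libraries a group allow no exact two-sided permutation p below 0.1, so calls rest on the spread shared by the model. The fit was run on simulated counts with known changes in a small share of genes and the same spread for all genes and groups. Those settings differ from these data, where most genes were called in some comparisons, so that run does not test the calls given here. No pair of tables of a group agreed within sampling noise (chi-square per degree of freedom 7.86 to 70.1).

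The members, lists and contrasts were chosen with earlier results of these data known. All 35 members are named. Values of each library are printed for the 2 members with the highest mean CPM in each step, for paralogue pairs and for the 6 members with the smallest p in the difference of differences. Values of Tyms, Tk1 and Uck2 were added after they were seen. Of the further genes, up to 4 with the smallest p in each main comparison and Shmt1, Shmt2, Mthfd2 and Samhd1 are named, and 1 gene that the rule also takes is not reported here. The titles number the libraries of each group from 1 to 3. Deviations from the group means correlated between Max KO and WT libraries of the same number at 0.244, 0.39 and 0.105, and for the other pairs of groups not every such correlation was above 0.1. The labels do not say what the numbers stand for.

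Alternatives were RLE, upper-quartile or no scaling factors, no filter, DESeq2 1.42.0, a fit of the compared groups alone, a replicate block and leaving out each library. The block within the 6 Max KO and WT libraries was added after seeing the data. Coordinates and exon lengths are those of GENCODE vM21 on mm10, and start windows those of RefSeq on GRCm38.p6.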

Additional observations from a re-analysis of the deposited data

Results flagged for a closer look

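The effect of Max loss differed between transgenic and nontransgenic cells for 33 of the 35 members and for 34 of the 45 further pathway genes tested (75.6%), by an edgeR quasi-likelihood test of the difference itself with Benjamini-Hochberg adjustment. Of all tested genes 55.7% were called by the same test. The values are log2 fold changes of EuMyc Max KO over EuMyc minus those of Max KO over WT, so that a negative value means a stronger decrease, or a smaller increase, upon Max loss in cells with the transgene. Groups of 3 libraries were too small for a test of single outlying libraries.

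On the way to IMP the differences were -1.52 for Pfas, -1.44 for Prps1, -1.43 for Atic, -1.26 for Gart, -1.22 for Paics, -1.10 for Ppat, -0.74 for Adsl and -0.72 for Prps2. In the branch to AMP and GMP they were -1.19 for Impdh2, -1.005 for Gmps, -0.91 for Adss and -0.52 for Impdh1. The pyrimidine genes gave -1.69 for Ctps, -1.46 for Umps, -1.26 for Cad, -0.88 for Dhodh and 0.28 for Ctps2, where Ctps2 stood alone in sign among the members. Among the dNTP genes the values were -1.96 for Dctpp1, -1.95 for Dctd, -1.77 for Dut, -1.19 for Tyms, -1.12 for Dtymk, -1.10 for Rrm1, -0.94 for Rrm2b, -0.81 for Dck and -0.79 for Tk1. The kinases gave -1.27 for Nme1, -0.95 for Nme2, -0.51 for Guk1 and -0.50 for Cmpk1, and the salvage enzymes -1.71 for Uck2, -1.03 for Hprt and -0.98 for Aprt. Without the transgene, Uck2, Dck, Dctpp1, Dut, Ppat, Paics and Aprt were lower in Max KO than in WT with a call. For these 7 genes both differences had the same sign and differed in size.

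Of the named further genes, the folate enzymes had -3.02 for Shmt1, -1.41 for Mthfd1l, -1.39 for Shmt2, -1.21 for Mthfd2 and -1.19 for Mthfd1, and Ak3 had -0.55. Positive values were 3.38 for Nt5e, 1.48 for Entpd1 and 0.44 for Samhd1. For Nt5e, Max loss went with a lower level in nontransgenic cells and a higher level in transgenic cells, at 1.68 ± 0.171 CPM in EuMyc Max KO against 0.695 ± 0.286 CPM in EuMyc, and 0.944 ± 0.699 CPM in Max KO against 4.17 ± 0.391 CPM in WT (SD, n = 3 each). The increase in transgenic cells lost its call without EuMyc replicate 3, at an edgeR adjusted p of 0.0766.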

How the results depend on the processing

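Counts of called members kept within 1.5 times of their reported value under every alternative except in Max KO against WT, where 8 became 13 with DESeq2 (12 lower, 19.4% of tested genes called) and 13 in a fit of the 6 Max KO and WT libraries alone with the replicate number as a block (10 lower). The cause was not tested. No called direction reversed in any of the alternatives. Values without a call did change sign near 0, among them those of Rrm2 in the difference of differences (-0.42 to 0.32), Impdh1 in EuMyc Max KO against EuMyc (-0.02 to 0.15), and Cad (-0.05 to 0.01) and Atic (-0.06 to 0.05) in EuMyc Max KO against Max KO. Leaving out each library gave 6 to 12 called members in Max KO against WT, 35 to 35 in EuMyc against WT, 32 to 33 in EuMyc Max KO against EuMyc, 11 to 16 in EuMyc Max KO against Max KO, 8 to 11 in EuMyc Max KO against WT and 32 to 34 in the difference of differences. For the further pathway genes the ranges were 5 to 9 (Max KO against WT), 35 to 38 (EuMyc against WT), 32 to 35 (EuMyc Max KO against EuMyc) and 31 to 34 (difference of differences).

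With the replicate block in the fit of all 12 libraries, 7 members were called in Max KO against WT, 35 in EuMyc against WT, 33 in EuMyc Max KO against EuMyc, 13 in EuMyc Max KO against Max KO, 11 in EuMyc Max KO against WT and 33 in the difference of differences. The block ended the call of Aprt in Max KO against WT and gave calls to Tk1 in EuMyc Max KO against EuMyc and to Dctd in EuMyc Max KO against WT. What a shared number stands for is not known for any pair of groups.

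Relative to TMM, the median log2 fold change of all genes moved by -0.127 with upper-quartile factors and by -0.104 with library totals in EuMyc against WT, and by 0.12 with library totals in EuMyc Max KO against EuMyc. Rrm2, Tyms and Dctd, the member with the fewest reads, carry the widest intervals, and 3 libraries per group limit the rest.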
